A study of Mus musculus with 1 sample.

Results

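Layer VI corticothalamic-like neurons of the newborn mouse cortex were described from sc-RNA Seq of 1 wild-type (WT) library. They numbered 727 of the 6710 excitatory barcodes, or 10.8% (exact binomial 95% interval 10.1 to 11.6), and 6.57% of the 11062 barcodes of the library. A barcode marks 1 droplet and, in most cases, 1 cell. The members were chosen by their measured UMI counts: a UMI (unique molecular identifier) marks 1 captured transcript. The UMIs of Hs3st4, Nxph3, Syt6 and Foxp2 were summed into a score, which had to reach 5 and to be at least 2 times each of the like scores for layers II/III, IV and V. Excitatory barcodes had at least 1000 detected genes, at least 2 UMIs of Neurod2 and Neurod6 together, at most 1 of Gad1 and Gad2, none of Eomes, Top2a or Mki67, and at most 2 of the layer VIb genes Nxph4, Cplx3 and Moxd1. The tissue was cerebral cortex of C57BL/6 mice at P0, the day of birth, dissociated with papain and captured on the 10x Genomics platform. The study asked how human SERPINA3 changes the cortex, and the WT mice were its reference. The knock-in mice were not analysed here. By the methods their breeding also used a further strain, and whether these WT mice came from that breeding is not stated. The series design names triplicate sequencing and the methods biological replicates for each experiment, but neither says how many animals this library holds. As 1 library was analysed here, no value below has replicate error and no test was made. Intervals in brackets are 95% intervals and cover counting error only.

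Corticothalamic neurons sit in layer VI, the deepest layer of the cortical plate, and send their axons to the thalamus, which in turn is the main source of sensory input to the cortex. They are among the earliest born neurons of the cortex. Tbr1, Sox5 and Tle4 are known regulators of their fate, while Fezf2 and Bcl11b (CTIP2) are best known for the subcerebral projection neurons of layer V. Of the genes in the score, Hs3st4 encodes a sulfotransferase of heparan sulfate, Nxph3 a secreted ligand of neurexins, Syt6 a synaptotagmin and Foxp2 a transcription factor.

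The values that chose the members are given first as a description. The score ranged from 5 to 52 with a median of 14 UMIs. Hs3st4 supplied 46.1% of it, Foxp2 22.3%, Nxph3 18.99% and Syt6 12.7%. All 4 genes were detected in 449 members (61.8%), 3 in 214, 2 in 58 and a single one in 6. The median member had 9558 UMIs (lowest 1850, quartiles 7952.5 and 10890, highest 34330) and 3694 detected genes, against 8926 UMIs in the 5983 other excitatory barcodes. Mitochondrial genes took a median of 2.93% of the UMIs in members and 3.36% in the others. A simulated-doublet score placed 21 members (2.89%, 1.80 to 4.38) among its highest barcodes, compared with 636 of the others (10.6%, 9.86 to 11.4).

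Tle4, the corepressor that marks these neurons and that the rule did not use, was present in 720 of the 727 members. Its level was 853 CPM (831 to 875) in members and 77.2 CPM (75.03 to 79.5) in the other excitatory barcodes, an 11.04-fold difference (10.6 to 11.5). Against layer II/III-, IV- and V-like barcodes alone it was 27.4-fold higher. CPM is the summed UMI count of a gene over all barcodes of a class per 1000000 UMIs without mitochondrial genes. After each barcode had been thinned to 4000 UMIs, which left out 37 members and 842 others, 92.9% of members and 13.1% of the others had a Tle4 UMI (unthinned 99.0% and 20.8%). In inhibitory barcodes, which held a median of 6538 UMIs, the share was 7.78% thinned and 13.8% unthinned. Whether this share is background was not tested. The 25 barcodes that met the score rule but held more than 1 Gad UMI had 337 CPM of Tle4. The rule genes were also read with each left out of the score in turn. Members picked by the other genes then held 9.45-fold more Hs3st4, 14.8-fold more Nxph3, 12.3-fold more Syt6 and 8.997-fold more Foxp2 than the other excitatory barcodes. The rule was set with earlier results of these data known. These folds therefore describe the rule and are no separate support for the label. With Hs3st4 left out, 393 of the 727 members still met the rule, and the share of excitatory barcodes was 5.86%.

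Apart from subsets described further below, the label did not suit 2 members by their markers of another cell type. They held 148 and 178 UMIs of the Cajal-Retzius markers Reln, Trp73, Lhx1, Lhx5 and Ndnf, while 692 members held 0 and 33 held 1 to 4. Cajal-Retzius cells are early neurons of the cortical surface that secrete reelin. These 2 barcodes had a median of 33080 UMIs and supplied 246 of the 279 Reln UMIs of all members. In them Reln stood at 3829 CPM, Calb2 (calretinin) at 1572 CPM and Nhlh2 at 856 CPM, and Tle4 at 296 CPM. Without them Tle4 was 11.1-fold higher in members. Reln changed from 1.99-fold higher to 4.22-fold lower, Ndnf from 2.03-fold higher to 10.6-fold lower and Nhlh2 from 2.70-fold higher to 2.89-fold lower. Such barcodes were left out of members alone. In all, 22 excitatory barcodes held at least 5 UMIs of these markers, and those in the comparison group were kept. The lower folds are therefore against a group that still held such barcodes. No other named or listed gene past 2-fold turned its direction when the 2 members were left out.

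To see what else sets these neurons apart, members were compared with the other excitatory barcodes over 10693 genes with a mean of both groups of at least 5 CPM. Rule and gate genes were left out of the calls. The comparison group also held barcodes much like the members. Among these were 202 and 170 that reached the score but not the margin, with 720 and 327 CPM of Tle4. A further 39 met the margin with a score of 3 or 4 and held 781 CPM. In members 480 genes (4.49%) were at least 2-fold higher and 490 (4.58%) at least 2-fold lower. The median log2 ratio of all these genes was 0.05. Since the members and the comparison group come from the same droplet run and were split by genes of the same barcodes, the folds are a description of the split. The counts of list genes below stand beside these shares.

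**Figure D1:**
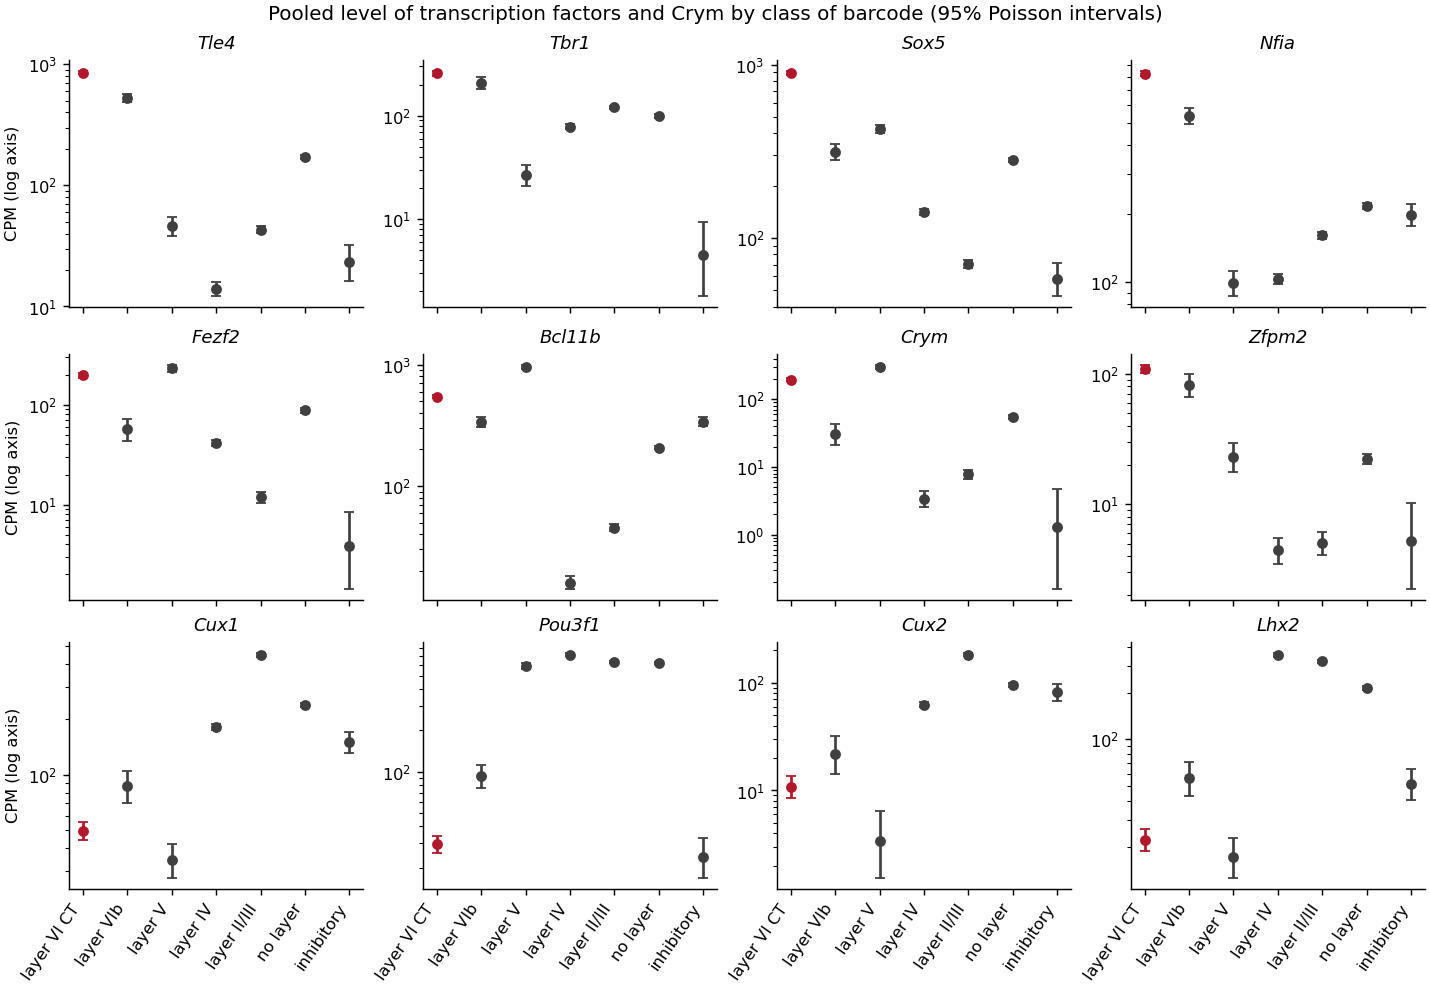
Pooled CPM (log axis) of 11 transcription factors and Crym in layer VI corticothalamic-like barcodes (red) and in layer VIb-, V-, IV- and II/III-like, layerless excitatory and inhibitory barcodes (grey), with 95% Poisson intervals. Members held the highest Tle4 (853 CPM), Sox5 and Nfia, while Bcl11b, Fezf2 and Crym were higher in layer V-like barcodes and Pou3f1 was lowest among the excitatory classes at 29.6 CPM.

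Deep-layer transcription factors were read first. Of 19 measured, 9 were at least 2-fold higher and 2 at least 2-fold lower, with a median log2 ratio of 0.94. Sox5, which controls the order in which deep-layer neurons form, was at 891 CPM (869 to 914) in members and 175 CPM (172 to 179) in the others, 5.08-fold higher. Tbr1, the T-box factor of layer VI, was at 257 CPM (245 to 269) against 97.9 CPM (95.4 to 100.4), 2.62-fold higher. Of the nuclear factor I genes, Nfia was 5.16-fold higher (826 against 160.0 CPM) and Nfib 2.09-fold higher (2842 against 1359 CPM), but Nfix differed by 1.09-fold. Zfpm2, a cofactor of GATA factors, was 9.63-fold higher (8.66 to 10.7). Bcl11b was 4.17-fold and Fezf2 3.60-fold higher, and the zinc finger factor Tshz3 2.87-fold higher. The 2 lower genes were Foxp1 (3.29-fold) and Nr4a2 (2.63-fold), the latter a marker of subplate and of claustrum. Of the genes related to Tle4, Tle1 was 13.4-fold and Tle3 11.5-fold lower in members.

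Transcription factors of upper-layer and callosal neurons were mostly lower. Of 15 measured, 11 were at least 2-fold lower and 0 higher, and the median log2 ratio was -1.85. Pou3f1, a POU factor, lay below every other excitatory class, at 29.6 CPM (25.6 to 34.0) in members against 649 CPM (643 to 656) in the others, 21.9-fold lower. Lhx2 was 12.6-fold, Cux2 10.4-fold, Bhlhe22 6.33-fold and Cux1 5.75-fold lower. Lmo4, which is used to mark callosal neurons and areas, was 5.79-fold lower.

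Genes known from adult layer VI corticothalamic neurons were mostly higher. Of 13 measured, 9 were at least 2-fold higher and 0 lower (median log2 ratio 1.72). Besides Zfpm2 they were Grik3 (8.14-fold), a kainate receptor subunit; Cdh18 (7.07-fold); Bmp3 (6.71-fold); Crym (5.56-fold), a thyroid hormone binding protein; Kcnab1 (3.38-fold); Thsd7b (3.30-fold); Rprm (2.84-fold); and Tmem163 (2.68-fold, 2.26-fold without the Reln-rich pair). Ntsr1, the neurotensin receptor whose promoter drives a much used Cre line for these neurons, was at 55.04 CPM (49.6 to 60.9) against 35.8 CPM (34.3 to 37.4), 1.54-fold higher. Among subcerebral projection genes 4 of 12 were at least 2-fold higher, namely Fezf2, Bcl11b, Crym and Npr3, and 0 were lower.

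**Figure D2:**
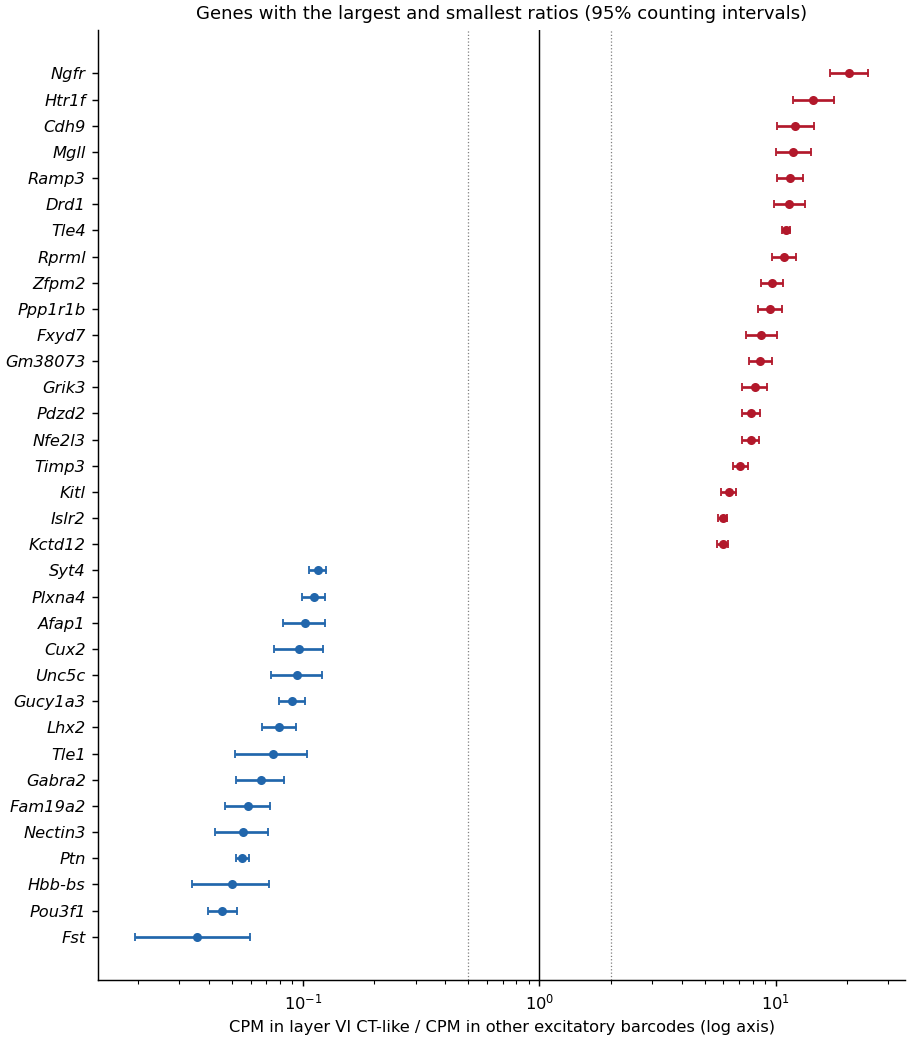
Ratio of pooled CPM in layer VI corticothalamic-like to other excitatory barcodes (log axis) for named genes with the largest (red) and the smallest ratios (blue) once 5 CPM had been added to both sides, with 95% counting intervals and dotted lines at 2-fold. Ngfr lies at 20.4-fold higher and Fst at 28.1-fold lower.

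The genes of largest ratio are described next. Ngfr, the p75 neurotrophin receptor, was at 57.4 CPM (51.8 to 63.4) in members and 2.82 CPM (2.41 to 3.28) in the others, 20.4-fold higher, and had 0 UMIs in layer V-like and inhibitory barcodes. Thinned, 18.7% of members and 0.895% of the others held an Ngfr UMI (unthinned 32.9% and 2.01%). Htr1f, a serotonin receptor, was 14.4-fold higher and Ramp3, a partner of calcitonin-type receptors, 11.5-fold higher. The dopamine receptor gene Drd1 was at 60.5 CPM (54.8 to 66.7) against 5.30 CPM (4.73 to 5.92), 11.4-fold higher. Ppp1r1b, which encodes DARPP-32, a phosphatase inhibitor downstream of dopamine, was 9.49-fold higher (90.1 against 9.50 CPM). Layer VIb-like barcodes were in neither group. The 41 of them that met the score rule held 19.6 CPM of Ngfr, 69.9 CPM of Drd1 and 40.5 CPM of Ppp1r1b. Zfpm2 was at 96.4 CPM in these 41 and 110 CPM in the 681 members with a score over 6. Mgll, an enzyme that breaks down an endocannabinoid, was 11.9-fold higher, and Kitl, the ligand of the Kit receptor, 6.31-fold higher. Other genes of the ranking were Rprml (10.8-fold), Fxyd7 (8.70-fold), Pdzd2 (7.85-fold), Nfe2l3 (7.83-fold), the metalloproteinase inhibitor Timp3 (7.08-fold), Islr2 (5.97-fold), Kctd12 (5.96-fold) and the unnamed gene model Gm38073 (8.62-fold).

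Drd1 and Ppp1r1b also mark striatal neurons, so the whole striatal list was read. Of its 11 genes, Isl1, Adora2a, Tac1 and Six3 had 0 UMIs in members, and Drd2, Penk, Ebf1 and Rarb lay between 0.296 and 3.70 CPM. The list summed to 157 CPM in members and 22.4 CPM in the others, and Drd1 and Ppp1r1b held nearly all of it in members. Other cell types were also read. All 5 measured blood and vascular markers and 8 of 9 radial glia and astrocyte markers were at least 2-fold lower in members. These lists summed to 13.6 against 161 CPM and 99.6 against 371 CPM. Without the barcodes of highest doublet score, 3 of the 5 and all 8 were still at least 2-fold lower. The ratio of Hbb-bs then went from 0.0501 to 0.292 and that of Hba-a1 from 0.0401 to 0.291, while Hba-a2 was 1.41-fold lower and Cldn5, with 9 UMIs in members, turned to 2.12-fold higher. Hbb-bs, a haemoglobin gene, is one of the 15 genes of smallest ratio (4.44 against 88.5 CPM) and reached 232 CPM in the excitatory barcodes without a layer. The part of such RNA in the lower calls was not tested. The inhibitory list summed to 701 CPM in members and 408 CPM in the others, of which Npy, which excitatory barcodes also held, made up 676 and 385 CPM. Of its 11 genes 2 passed the filter, and 1 of these, Adarb2, was at least 2-fold higher in members (11.2 against 4.09 CPM, 2.75-fold), with 173 CPM in inhibitory barcodes. Gad1 was at 2.22 CPM in members and 294 CPM in inhibitory barcodes, but the rule limited it.

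Of 25 cAMP and calcium signalling genes 10 were at least 2-fold higher and 2 lower, with a median log2 ratio of 0.68. The adenylyl cyclase Adcy1 was 5.02-fold higher (526 against 105 CPM) and the kinase anchor Akap7 4.63-fold. Pde1c and Pde1a, calcium-dependent phosphodiesterases, were 4.57-fold and 3.48-fold higher. Camk2n1, an inhibitor of CaM kinase II, was 3.84-fold, Camk4 2.76-fold and Prkcb 2.57-fold higher. Prkca, which encodes another protein kinase C, was 3.04-fold lower.

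At the lower end, Fst, which encodes the activin inhibitor follistatin, was 28.1-fold lower with 2.07 CPM (1.13 to 3.48) in members. Ptn, the growth factor pleiotrophin, was at 153 CPM (143 to 162) against 2756 CPM (2743 to 2770), 18.1-fold lower. Nectin3, an adhesion molecule, was 18.0-fold, Fam19a2 17.1-fold, the GABA-A receptor subunit Gabra2 15.1-fold and the guanylyl cyclase subunit Gucy1a3 11.1-fold lower. Syt4, a synaptotagmin, was 8.68-fold and Afap1, an actin binding protein, 9.86-fold lower.

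Axon guidance genes were divided by family. Of 16 netrin, Slit and receptor genes 8 were at least 2-fold lower and 2 higher. Of the receptors, Unc5c was 10.6-fold, Unc5d 9.47-fold, Dcc 4.04-fold, Neo1 3.31-fold, Robo2 2.53-fold and Robo1 2.37-fold lower, but Unc5a (19.2 against 16.9 CPM) and Dscam (43.8 against 31.6 CPM) were within 2-fold. The ligand Slit1 was 4.60-fold and the Unc5 ligand Flrt2 2.10-fold higher, and Slit2 was 8.48-fold lower. Of 24 semaphorin, plexin and neuropilin genes 3 were lower, Plxna4 (9.02-fold), Sema3c (8.85-fold) and Sema3a (3.62-fold), and Sema6a was 4.24-fold higher. Of 14 ephrin and Eph genes, Ephb1 was 4.97-fold higher (320 against 64.3 CPM), while Epha3, Efnb2 and Epha4 were 4.63-fold, 3.24-fold and 2.74-fold lower. Cadherins were split as well, with 4 of 19 higher and 9 lower. Cdh9 was 12.1-fold and Cdh13 3.14-fold higher, while Cdh20 (2 UMIs in members), Cdh12 and Cdh8 were 38.3-fold (10.6 to 317), 10.2-fold and 8.28-fold lower. In the extracellular matrix list 3 of 18 were higher, Vcan (5.22-fold), Lypd1 (4.25-fold) and Islr2, and 6 were lower, among them Tnr (4.30-fold) and Ptprz1 (2.72-fold).

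Beyond Hs3st4 itself, heparan sulfate genes differed in both directions, with 2 of 20 higher, 3 lower and a median log2 ratio of -0.01. Sulf2, which removes sulfate groups, was 5.17-fold higher and the sulfotransferase Hs3st5 3.92-fold higher. Gpc5, a glypican with 3 UMIs in members, was 22.1-fold lower (7.52 to 107), Gpc6 11.7-fold and Ndst3 6.01-fold lower. Of the neurexin partners, Lrrtm4 was 4.74-fold and Lrrtm2 2.69-fold higher and 0 of 14 were lower.

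Among glutamate receptor genes 6 of 21 were at least 2-fold higher and 3 lower. Grm3, a metabotropic receptor, was 5.37-fold higher (186 against 34.5 CPM), the AMPA receptor subunit Gria3 3.63-fold, and the kainate receptor partners Neto1 and Neto2 3.56-fold and 3.46-fold higher. Grik4 was 2.88-fold higher. Grm2 was 9.69-fold, the NMDA receptor subunit Grin2a 5.89-fold and Grm7 4.09-fold lower. In the GABA-A receptor list 5 of 12 were lower, including Gabra4 (13.2-fold) and Gabra5 (2.98-fold) beside Gabra2, and Gabra3 was 2.38-fold higher. Both chloride transporters were past 2-fold, in opposite directions: Slc12a5 (KCC2), which exports chloride in mature neurons, was 2.07-fold higher (1.69 to 2.53) and Slc12a2 (NKCC1), which imports it, 2.05-fold lower (1.77 to 2.39). Of 41 voltage-gated channel genes 8 were higher and 7 lower, with the potassium channel partner Kcnip2 7.29-fold higher and Kcnip4 2.95-fold lower.

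Maturity genes had a median log2 ratio of 0.30 and immaturity genes of -0.46, beside 0.05 for all genes, but single genes went both ways. Of 20 maturity genes, 4 were higher, among them Snap25 (2.61-fold), Vsnl1 (2.39-fold) and the vesicular glutamate transporter Slc17a7 (2.24-fold). The neurofilaments Nefl and Nefm were 2.67-fold and 2.46-fold lower, and the other transporter Slc17a6 10.8-fold lower, at 5.47 CPM against 59.2 CPM. Of 14 immaturity genes, Neurod1 (9.67-fold) and Cd24a (2.06-fold) were lower, and Nhlh2 was higher only through the Reln-rich pair. Of 10 immediate early genes, Npas4 (5.42-fold), Junb (3.66-fold) and Fosb (2.16-fold) were higher. Of 12 area factors 6 were lower and Etv5 was 2.59-fold higher; Lhx2, Lmo4, Bhlhe22 and Nr2f1 are shared with the callosal list.

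**Figure D3:**
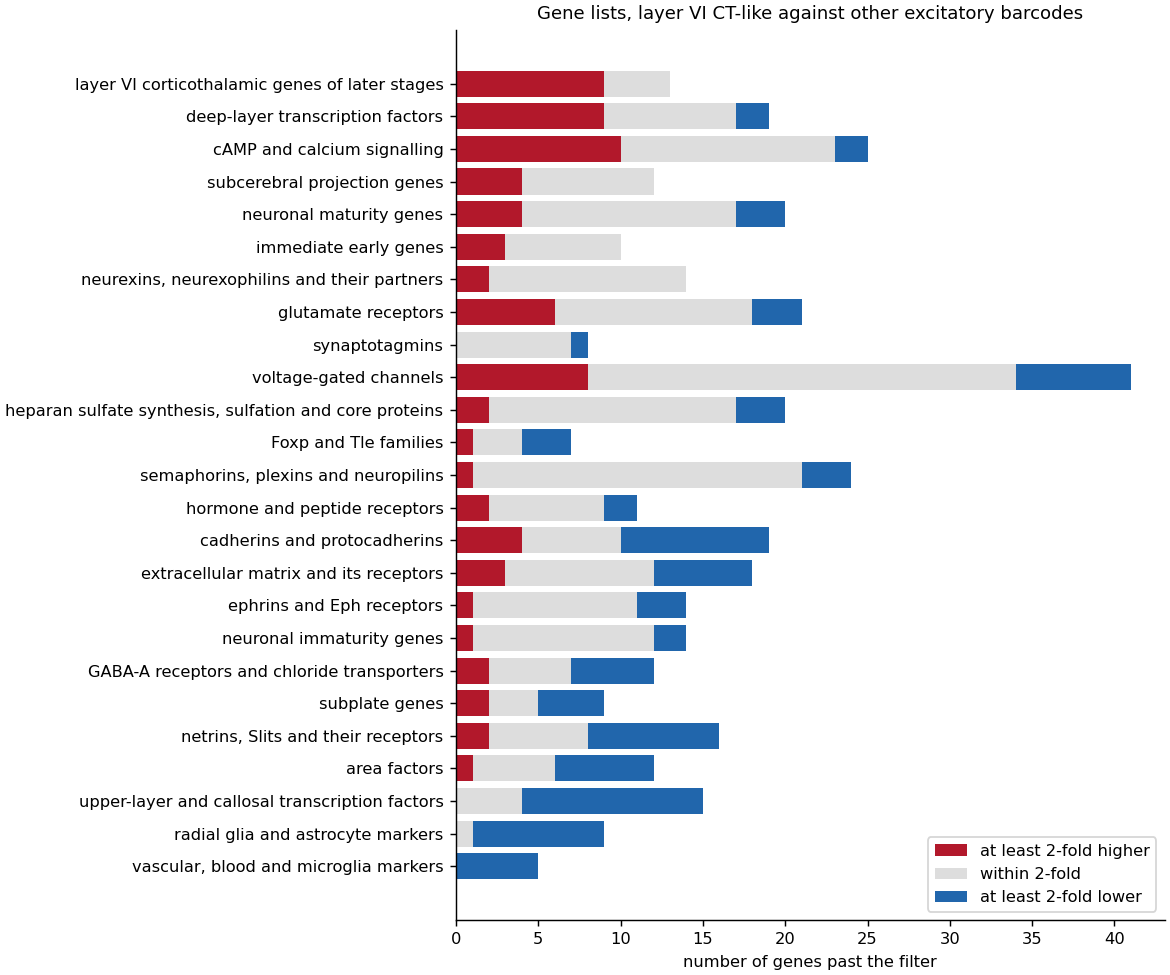
Number of genes past the filter in each list that were at least 2-fold higher (red), within 2-fold (grey) or at least 2-fold lower (blue) in layer VI corticothalamic-like than in other excitatory barcodes, ordered by the median log2 ratio of the list, for lists with 5 or more genes. Later-stage corticothalamic genes (9 of 13 higher) stand at the top, and all 5 blood and vascular genes were lower, of which Cldn5 turned higher without the barcodes of highest doublet score.

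Against the neighbouring deep layers the pattern differed. Of 10512 genes, 946 (9%) were at least 2-fold higher and 434 (4.13%) at least 2-fold lower in members than in the 112 layer V-like barcodes, which held a median of 21811 UMIs. Tle4 was 18.4-fold and Tbr1 9.61-fold higher than in layer V, and the secreted factor Wnt7b was 23.4-fold, Tmem132b 38.9-fold, Wscd1 19.4-fold, Timp3 13.4-fold and Gse1 13.3-fold higher. Neurotensin (Nts) and Ngfr had 0 UMIs in layer V-like barcodes, so with a floor of 3 counts over that group they were at least 73.2-fold and at least 50.9-fold higher. For Nts this rests on 16 members, which held 552 of the 558 UMIs; the 709 with 0 or 1 UMI outside the Reln-rich pair stood at 0.9199 CPM, below the 1.13 CPM that 3 counts give in layer V, and no fold is given for them. Bcl11b, at 546 CPM in members and 959 CPM in layer V, and Fezf2, at 198 and 232 CPM, were within 2-fold. Genes lower than in layer V were Sorcs1 (1.63 against 95.9 CPM), 6430573F11Rik, Cntnap5a (4.88 against 147 CPM), Cdh8 (7.10 against 148 CPM), Pou3f1, Pcdh19, Bhlhe22 and Syt4.

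The 60 layer VIb-like barcodes shared some markers with members and not others. Their median was 19099 UMIs, against 9558 in members. Of these 60, 10 (16.7%, 8.29 to 28.5) were among the highest doublet scores, against 2.89% of members. The gate kept the 60 apart by a count of Nxph4, Cplx3 and Moxd1 UMIs, which also depends on depth. Of the 60, 41 also met the score rule. Of 10656 genes, 513 (4.81%) were at least 2-fold higher and 569 (5.34%) at least 2-fold lower in members. Tle4 (1.62-fold higher), Tbr1 (1.24-fold) and Nfia (1.53-fold) lay within 2-fold, and Drd1 stood at 60.5 CPM in members and 60.2 CPM in layer VIb. Sox5 and Fezf2 were 2.86-fold and 3.485-fold higher in members than in layer VIb, whereas Sox5 was 2.10-fold higher than in layer V and Fezf2 within 2-fold of it. Kif26a (7.49-fold), Mmp17 (7.81-fold), Npr3 (8.79-fold), Crym (6.36-fold), Gm26778 (6.36-fold), Timp3 (6.24-fold) and Rprm (5.09-fold) were higher in members. Nts was 6.31-fold higher over all members through the same 16. Layer VIb stood at 13.1 CPM of Nts. The 709 were chosen for 0 or 1 Nts UMI and layer VIb was not trimmed alike. Their 0.9199 CPM follows from that choice, and no fold to layer VIb is given for them. Ctgf and Nr4a2, both known from the subplate, were among the lower genes, Ctgf at 2.22 CPM in members and 149 CPM in layer VIb and Nr4a2 at 27.2 and 228 CPM. Against the other excitatory barcodes, 4 of 9 subplate genes were at least 2-fold lower in members (Nr4a2, Unc5c, Kcnt2 and Cdh10) and 2 higher, Tmem163 (2.68-fold) and Pde1a (3.48-fold). In layer VIb these 2 stood at 97.7 and 113 CPM, above their 10.8 and 40.2 CPM in members. Col19a1, the relaxin receptor Rxfp1, Itm2a, Igfbp5, Snhg11 and Pcp4 were the other lower genes of the ranking, at between 2.37 and 62.4 CPM in members and between 56.7 and 573 CPM in layer VIb.

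How sharply the rule cut was read from its edges, without a test. The 46 members with a score of 5 or 6 held 920 CPM of Tle4 (805 to 1047), and the 681 with more held 850 CPM (828 to 873). Just outside, 39 barcodes with a score of 3 or 4 that met the margin held 781 CPM (655 to 923). The 202 barcodes whose score was 1 to 2 times the highest other layer's held 720 CPM of Tle4 (687 to 755), but 166 CPM of Pou3f1, compared with 29.6 CPM in members. A further 170 barcodes reached the score but had a higher one for another layer. They held 327 CPM of Tle4 and a median of 20483 UMIs. Outside the excitatory gate 127 barcodes met the score rule. Of them 41 were the layer VIb-like barcodes, which passed every other gate, and 3 had too few genes. Among the rest 40 held a Top2a or Mki67 UMI, 30 had too few Neurod UMIs, 25 too many Gad UMIs and 2 an Eomes UMI. These last counts overlap, as 14 barcodes had more than 1 of these reasons.

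**Figure D4:**
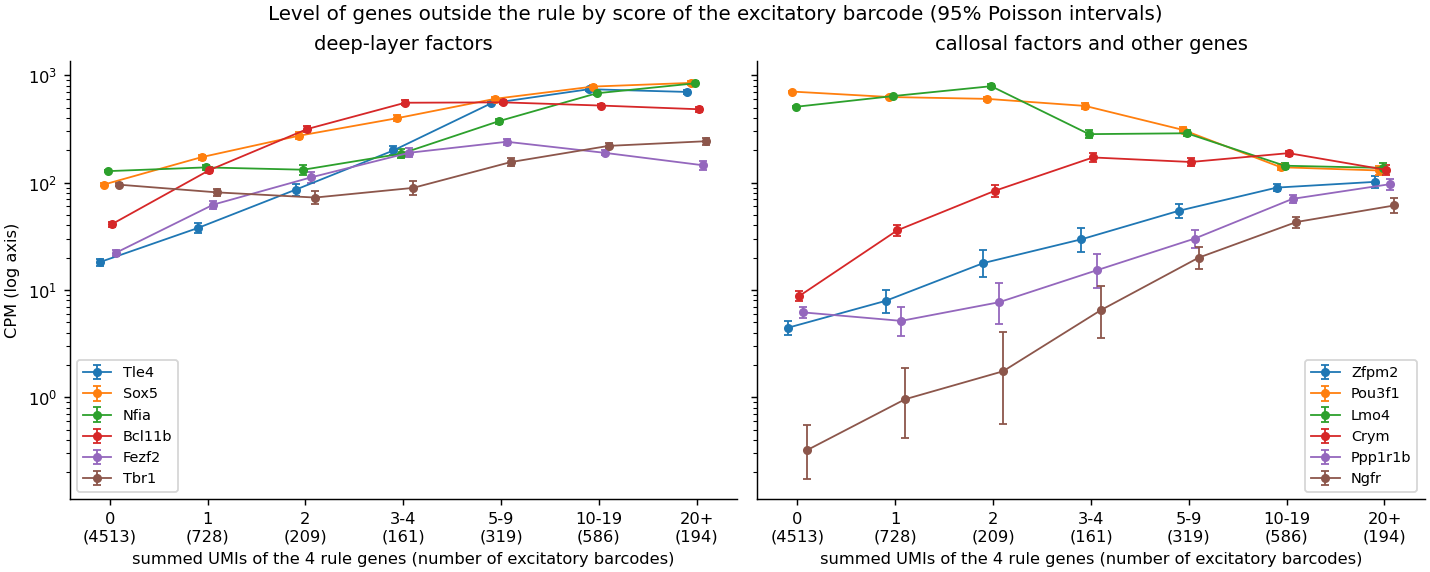
Pooled CPM (log axis) with 95% Poisson intervals of 12 genes outside the rule in the 6710 excitatory barcodes, by the summed UMIs of the 4 rule genes, with the number of barcodes in each bin. Tle4 goes from 18.2 CPM at a score of 0 to 743 CPM at 10 to 19, and Pou3f1 from 706 to 139 CPM.

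Over all excitatory barcodes some levels followed the score. Sox5, Zfpm2, Drd1 and Ngfr were higher in each bin than in the one before, and Pou3f1 was lower in each. Lmo4 did not follow it so, with 509 CPM at 0, 792 CPM at 2 and 137 CPM at 20 or more, nor did Tbr1, with 95.7, 72.6 and 243 CPM. Tle4 was at 18.2 CPM in the 4513 barcodes with a score of 0, 37.8 CPM at 1, 85.9 CPM at 2, 199 CPM at 3 or 4 and 549 CPM at 5 to 9, and at 743 and 700 CPM in the last bins. Bcl11b was already at 555 CPM at 3 or 4, near its 523 CPM at 10 to 19. Ngfr and Ppp1r1b were still higher in the last bin, at 61.3 and 96.9 CPM with a score of 20 or more. Fezf2 was highest at 5 to 9, with 240 CPM. A score in UMIs also depends on depth, as the median total was 8262 UMIs at 0 and 11797.5 at 20 or more. Relative to depth, the Reln-rich pair left out, the 242 members with the highest score per 10000 UMIs (above 18.8) held more Foxp2 by the rule, and also more Nfia (1054 CPM), Ppp1r1b (120 CPM) and Htr1f (53.6 CPM) than the 242 with the lowest (up to 14.45), in which these were at 627, 54.6 and 23.5 CPM. The 242 with the highest held less Fezf2 (159 against 236 CPM), Crym (147 against 239 CPM), Cck (82.9 against 197 CPM), Etv1 (14.9 against 97.9 CPM) and Tshz2 (3.47 against 95.1 CPM). Nts was at 0.993 against 192 CPM, the latter from 18 barcodes. Tle4 was at 817 CPM in the highest and 869 CPM in the lowest.

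Variation among members was read gene by gene. The Fano factor, the variance of the UMI count over its mean, was computed for 5991 genes in the 690 members thinned to 4000 UMIs. A value of 1 is what random sampling of equal cells gives. The median was 1.03 and 26 genes exceeded 2, but thinning draws the factor of genes with few UMIs toward 1. Nts, at 21.2, came first: 2.61% of thinned members held a UMI (unthinned 3.03%), against 1.11% of inhibitory barcodes (1.97% unthinned), and 1 of them held 35. Then came the nuclear RNA Malat1 (12.8) and the neuropeptide Npy (12.2), detected in 48.6% of thinned members (59.4% unthinned) and 16.1% of inhibitory barcodes (21.2% unthinned). Snhg11 (7.85), Tmsb4x (6.68), Tshz2 (4.16), Gm42418 (4.11), Meg3 (3.81), Fabp7 (3.59), the cholecystokinin gene Cck (3.39), Sox4 (3.02), Id2 (2.98), Etv1 (2.89), Ptn (2.85) and Chgb (2.55) followed. High factors were not particular to members. In the other excitatory barcodes, thinned alike, Nts was at 21.5, Malat1 at 11.2, Npy at 14.3, Snhg11 at 8.31, Cck at 3.37 and Etv1 at 3.06. Fabp7 was far higher there, at 62.1, and Chgb lower, at 1.81. The Reln-rich pair held Snhg11 at 3658 CPM and the remaining 725 members at 21.8 CPM.

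Subsets of the 725 members were then drawn by these genes, after their values had been seen, and are given as levels only. The 16 members with 2 or more Nts UMIs held 3202 CPM of Nts and the other 709 held 0.9199 CPM. They also held more Tshz2 (418 against 28.7 CPM), Ikzf2 (191 against 13.0 CPM) and the NMDA receptor subunit Grin3a (104 against 6.29 CPM), each found in 7 of the 16, and less Foxp2 (69.6 against 374 CPM), Nfia (331 against 842 CPM) and Npy (75.4 against 697 CPM). Their Tle4 was at 1091 CPM. The 61 members with 2 or more UMIs of Etv1, an ETS factor of layer V, held more Cxxc4 (295 against 27.5 CPM), Bhlhe22 (159 against 34.7 CPM), Fezf2 (435 against 176 CPM) and Tle4 (1369 against 809 CPM), and less Kitl (30.7 against 203 CPM), Cck (18.8 against 151 CPM) and Nfia (364 against 874 CPM). None of them had an Ngfr UMI, where the other 664 stood at 63.2 CPM. The 61 also held less Tbr1 (164 against 266 CPM) and Ntsr1 (18.8 against 59.1 CPM) and more Tshz2 (283 against 15.2 CPM). Their Sox5 was at 874 against 901 CPM. As Tle4 was higher in the Etv1 and Nts members, it does not tell them from the rest. Whether the label suits these 2 subsets was not tested. Of the 36 members with 2 or more Tshz2 UMIs, 25 (69.4%) were among the Etv1 members, of which they were 41.0%. Of the 16 Nts members, 7 were among the 138 with 2 or more Cck UMIs (19.03% of the 725 members), 6 among the Tshz2 members (4.97%), 4 among the Etv1 members (8.41%) and 0 among the 126 with 10 or more Npy UMIs (17.4%). Of the 61 Etv1 members, 1 was among the Cck members. Median depths lay between 9784 and 10767.5 UMIs in all 5 subsets.

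**Figure D5:**
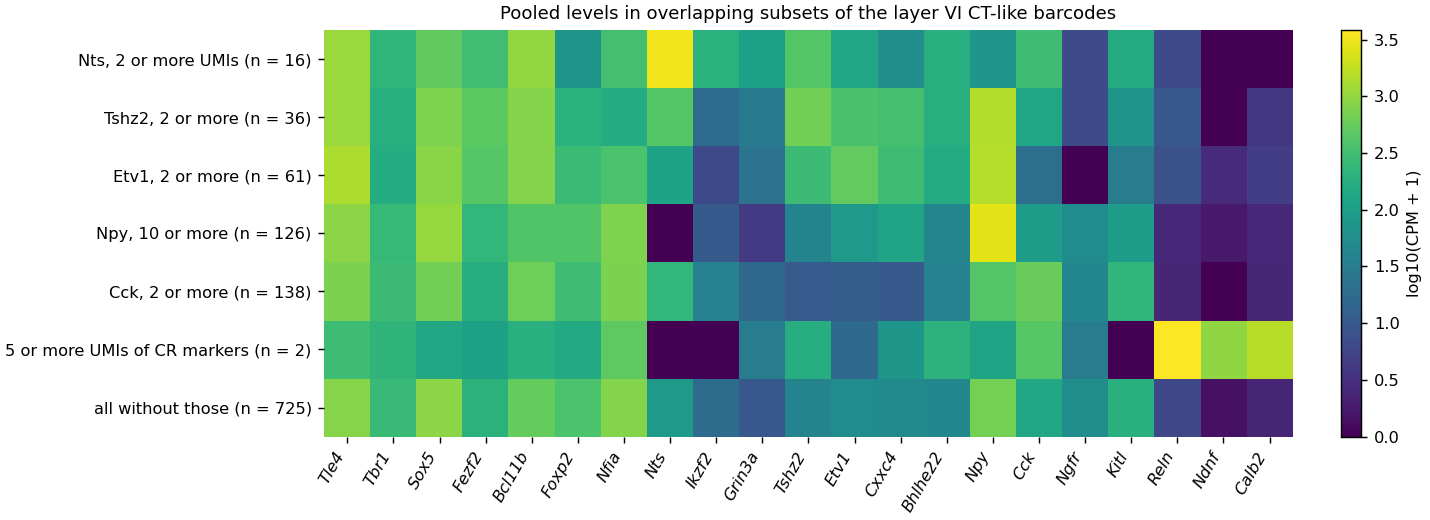
Pooled levels, as log10(CPM + 1), of 21 genes in overlapping subsets of the layer VI corticothalamic-like barcodes drawn by Nts, Tshz2, Etv1, Npy or Cck, in the 2 barcodes rich in Cajal-Retzius (CR) markers, and in the 725 without those. Nts reaches 3202 CPM in its 16 barcodes and 0 CPM in those rich in Npy, and Reln, Ndnf and Calb2 stand out in the 2 barcodes.

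Deep-layer factors were also read in the same barcodes, each thinned to 4000 UMIs. In thinned inhibitory barcodes Fezf2 and Tbr1 were found in 1.67% each. Fezf2 was found in 46.0% of the 576 members with a Bcl11b UMI and 50.9% of the 114 without, and the intervals overlap (41.9 to 50.2 and 41.4 to 60.4); in the other excitatory barcodes the shares were 34.5% and 6.05%. Tbr1 was found in 61.6% of members with Bcl11b and 58.8% of those without. A gene missing at this depth may still be expressed. Glo1, a glyoxalase that the study followed, was at 47.6 CPM (42.6 to 53.1) in members and 43.9 CPM (42.3 to 45.7) in the others, and Hagh, which encodes the other glyoxalase, at 33.4 and 32.9 CPM, both ratios with intervals that include 1. Mouse Serpina3n had 3 UMIs in members, all in 1 barcode of the Reln-rich pair, and 0 in the remaining 725 members and in the other excitatory barcodes.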

How the data were processed

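The authors deposited raw UMI counts per gene and barcode for 1 WT library of P0 cortex, with total counts and detected genes per barcode. These deposited counts were not normalized. Whether tissue of several animals was pooled is not stated. The submitters' processing notes name STAR, Cell Ranger 2, Seurat and the build mm9, with no role or order. Per the methods of the study, a sequencing company ran Cell Ranger and Seurat was applied to its output. How barcodes were called as cells, and with which annotation, is not given in the sources used here. The library held 90346034 UMIs over 11062 barcodes (median 7196.5, range 500 to 92061). Genes were matched by symbol and no coordinates are printed.

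UMIs were summed per class and scaled to CPM without the 37 mitochondrial genes. Levels have exact Poisson intervals, ratios an interval from the exact binomial split of the UMIs and shares exact Clopper-Pearson intervals, all at 95%. A count of 0 was set to 3 counts for a bound, and no fold was given where that bound crossed 1 or both groups held 3 UMIs or fewer. Genes with a mean CPM of both groups of at least 5 were counted as higher or lower past 2-fold; 26 genes of the rules and gates were left out. Layer II/III-, IV- and V-like barcodes met the same rule with their own score (Adamts2, Cntn2, Hs6st2 and Pou3f2; Rorb, Inhba, Lpl and Nwd2; Fam19a1, Tcerg1l, S100a10 and Arhgdib). Layer VIb-like barcodes passed every other gate but exceeded 2 UMIs of Nxph4, Cplx3 and Moxd1. Inhibitory barcodes held at least 5 Gad1 and Gad2 UMIs and at most 1 of Neurod2 and Neurod6. Thinning drew 4000 UMIs per barcode without replacement.

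Doublets were not removed. Each barcode was scored by its share of simulated doublets among its neighbours (2 per barcode, 2000 variable genes, 30 components), and an alternative left out the highest 8%. The named genes were the 20 with the largest and 15 with the smallest ratio (5 CPM added to both sides), 8 each way against layers V and VIb, the 15 of largest Fano factor (mean of at least 0.1 UMIs), and list genes past 2-fold; some of these are not reported here. Subsets of members were drawn after their values were seen. The members and lists were chosen with earlier results of these data known. The scripts were tested on simulated data. Python 3.11.15, numpy 2.4.6, scipy 1.17.1, pandas 2.3.3, scikit-learn 1.9.0 and matplotlib 3.10.9 were used.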

Additional observations from a re-analysis of the deposited data

How the results depend on the processing

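There was 1 library, so replicate spread, animal and batch cannot be told apart from any value here. No paired analysis was possible because a single library was analysed. The share of excitatory barcodes that were members was 9.69% with a score of at least 8, 8.24% with a margin of 3 times, 11.8% with at least 2000 genes and 11.7% without the barcodes of highest doublet score. The Tle4 ratio was 10.1 with a score of at least 8, 8.84 with a margin of 3 times and 13.6 without the barcodes of highest doublet score. It was 10.1 as a mean over barcodes and 27.4 against layer II/III-, IV- and V-like barcodes alone. With no filter on low levels 2054 genes were at least 2-fold higher and 1829 lower, and with a mean of at least 20 CPM 245 and 214; these change the number of genes tested. The following alternatives were added after the data were seen. With Hs3st4, Nxph3, Syt6 or Foxp2 left out of the score, the share was 5.86%, 9.58%, 9.88% and 8.99% and the Tle4 ratio 8.01, 9.77, 9.95 and 9.25. The 2 members rich in Cajal-Retzius markers were left out, but such barcodes of the comparison group were kept. Ndnf then had a ratio of 0.0944 and Nhlh2 of 0.346. As a mean over barcodes, with all members, Ndnf was at 0.913. Cldn5, with 9 UMIs in members, had a ratio of 2.12 without the barcodes of highest doublet score, and the cause was not tested. The cause of the other differences was not tested either. Counts of genes past 2-fold stayed within 1.5 times under the other alternatives. Of the 186 named and listed genes past 2-fold, between 0 and 12 were no longer so under any one alternative. The size of the ratios depended more on the processing. Of 401 gene ratios, 172 moved outside their main interval when thinned and 171 as a mean over barcodes. Against the layer II/III-, IV- and V-like barcodes 122 did so, and 112 with Hs3st4 left out. With mitochondrial genes kept 0 moved.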
